A study of Rattus norvegicus with 24 samples.

Results

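The livers examined here came from male RccHan Wistar rats that received 400 ppm rotenone in the diet for 14 days, and from male rats of the same strain and age that ate untreated food for the same time. Their arrays were chosen by title, 4 of rotenone livers and 4 of control livers, and make up 8 of the 24 arrays of the series. All 68842 transcript clusters of the array were compared, and the control probe sets were left out. The remaining 16 arrays are rotenone and control livers at day 1 and day 3, again 4 of each, and are used here only for the shared estimate of the spread and for comparison.

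In the study, rats aged 7 to 8 weeks were assigned at random to rotenone or control food, 5 to a group, and RNA from pieces of whole liver was hybridised to the Affymetrix Rat Transcriptome Array 1.0. Each array is a different animal. The rats shared cages of 2 or 3, and which animals shared a cage is not given in the sources used here, nor is the hour at which each liver was taken. None of the 6 groups ate an amount of control food matched to the intake of the rotenone rats. Any difference in food intake between the groups and rotenone itself therefore cannot be told apart. The RNA was of bulk tissue, in which fewer cells of a type and less RNA per cell cannot be told apart. No gene was deleted or overexpressed in any group, and the agent was rotenone alone.

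Rotenone is a plant compound that blocks complex I of the mitochondrial respiratory chain, the enzyme that passes electrons from NADH to ubiquinone and pumps protons across the inner membrane. In the liver, oxidation of fatty acids, synthesis of urea and production of glucose all lean on that chain. Hepatocytes also make cholesterol and bile acids, assemble lipoproteins, secrete most plasma proteins and clear foreign compounds through cytochromes P450. Many of these functions follow the circadian clock and, in rats, the pulses of growth hormone that differ between males and females.

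Expression values are given as log2(deposited intensity + 1), so a difference of 1 is a doubling of the array signal, and per-liver values are listed from replicate 1 to replicate 4. A cluster or gene was called past an adjusted p of 0.05 in limma, fitted over all 24 arrays with Benjamini-Hochberg adjustment over all clusters. Errors beside means are SD over 4 livers, and errors beside log2 changes are SE of the fit. At day 14, 3110 of the 68842 clusters passed (4.52%), 1848 higher and 1262 lower in rotenone livers, and 1028 of them differed by at least 1.8-fold (498 higher and 530 lower). The excess of rises over falls depended on the setting, with 1950 higher and 2079 lower without control replicate 1, 606 and 576 with the 8 day 14 arrays fitted alone, and 563 and 709 by an unadjusted Kruskal-Wallis test with the 1.8-fold minimum. Of 22037 genes with a symbol, each represented by its brightest cluster, 1317 rose (5.98%) and 736 fell (3.34%), and the median change of all genes was 0.01. These shares are the background for every list below. They include 6488 genes at the level of the negative controls in both groups, of which only 11 were called. Among detected genes the shares are therefore higher, and list counts look further above the background than they would against those genes. With the 8 arrays alone 429 genes rose and 307 fell, and of the 94 list counts above 0 in this fit, 70 were lower there and 24 the same. Signal at the level of the array's negative control probes was found on all 4 rotenone livers for 6746 genes and on all 4 control livers for 7426 genes, and 35 called genes were at that level in the dimmer group and so have only a lower bound on their change. Against the 90th percentile of those probes (7.32 to 7.72 log2 units) the number would be 694. All 4 livers of the dimmer group lay under that percentile for 25 called genes given below, whose fold changes are therefore uncertain in size, namely Abcc3, Acsm2, Alas2, Asns, Ccnd1, Cry1, Cux2, Cyp1a1, Cyp2c24, Cyp2c55, Cyp7b1, Dbp, Gimd1, Lox, Mki67, Ndufb2, Ndufs7, Nr1d1, Per3, Psat1, Rrm2, Rsad2, Serpina7, Top2a and Vnn1. Igfbp2 and Ciart, also given below, were not part of this check. The control livers lay at the negative controls for Ciart, so the same uncertainty holds for it. Albumin, the most abundant hepatocyte mRNA, read 19.90 in every rotenone liver and 19.90 or 19.91 in control livers. These readings are close to the highest signal of the arrays, where a change may not show. Of 14 hepatocyte markers, 12 did not pass the test (1 rose and 1 fell).

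Rotenone replicate 1 was set apart because earlier results of these data placed it near the day 3 livers, so the values that follow describe that choice and are no independent finding. Across the brighter 34421 clusters (mean signal not under the median) its root mean square difference from the other day 14 rotenone livers averaged 0.390 log2 units, against 0.366 from the 4 day 3 rotenone livers. For rotenone replicates 2, 3 and 4 the order was the opposite, with 0.358, 0.335 and 0.350 to their own group and 0.445, 0.414 and 0.449 to day 3. Without replicate 1, 3490 clusters passed, and 1354 genes rose (6.14%) and 861 fell (3.91%). The same call was made with and without it for 1849 genes. Results that rest on replicate 1 are therefore given both ways.

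**Figure D1:**
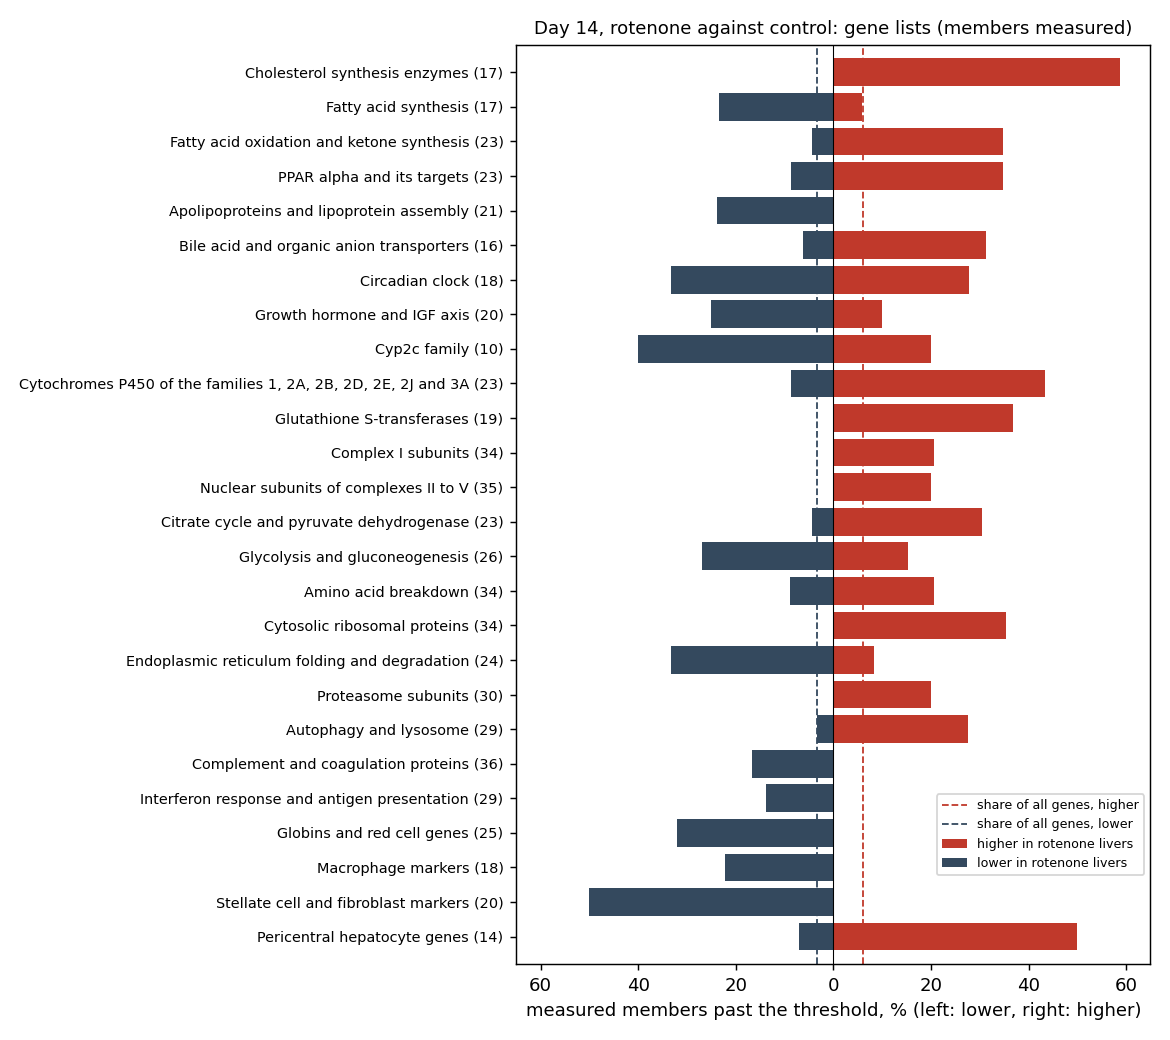
Share of the measured members of 26 gene lists past the limma threshold at day 14, higher (right) or lower (left) in rotenone livers, with the number measured in parentheses. Dashed lines mark the shares of all genes, 5.98% higher and 3.34% lower; cholesterol synthesis enzymes reached 10 of 17 higher and stellate cell and fibroblast markers 10 of 20 lower.

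Among lipid genes, enzymes of cholesterol synthesis rose in 3 of the 4 rotenone livers, several genes of fatty acid synthesis fell, and more genes of fatty acid oxidation rose than fell. Of 17 measured cholesterol synthesis enzymes 10 rose and none fell, and their median change was 1.16, against 0.01 for all genes. In 3 of the 4 rotenone livers the mean level of the list was 12.44, 13.01 and 13.47, while replicate 1, at 11.33, lay just above the 4 control livers at 11.26, 11.27, 11.23 and 11.20. Without replicate 1, 15 of the 17 enzymes rose with a median of 1.54. With the 8 day 14 arrays fitted alone, in which the spread of these 4 rotenone livers is not shared with other groups, 1 enzyme of the list passed, and leaving out single livers gave 7 to 15.

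Idi1, isopentenyl-diphosphate isomerase, which makes the building block of all isoprenoids, read 11.59, 13.21, 14.76 and 15.12 in rotenone livers, against 11.10, 11.54, 11.68 and 11.06 in control livers. Replicate 1 lay inside the control range and the other 3 rotenone livers lay well above it. The log2 change was 2.33 ± 0.51 (adjusted p = 0.0089, and 0.117 with the 8 arrays alone), and 3.02 without replicate 1. Its promoter is shown because replicate 1 and the other rotenone livers lay far apart for this gene, and because the box in capitals is shared by most of the list. Capitals mark ATTGG, the CCAAT box read on the opposite strand, which starts 66 and 35 bases before the transcription start. The sequence is the 250 bases before the start in RefSeq (GRCr8, chr17:66547525-66547774, minus strand).
Idi1: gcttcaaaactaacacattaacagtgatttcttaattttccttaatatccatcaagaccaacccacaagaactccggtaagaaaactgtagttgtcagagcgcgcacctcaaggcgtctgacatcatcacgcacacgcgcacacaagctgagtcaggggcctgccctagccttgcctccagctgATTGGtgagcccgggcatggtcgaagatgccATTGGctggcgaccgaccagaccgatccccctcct
A CCAAT box, a site for the factor NF-Y, was found on either strand in 11 of 14 cholesterol enzyme promoters in the table (78.6%), against 34.3% of all 27457 promoters of the same length. The box was also found in 9 of 16 promoters of the clock genes treated below (56.2%). The sterol regulatory element in the form TCACNCCAC was found in 0 of the 14 and in 0.976% of all promoters, again on either strand. These matches describe the letters only.

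Of the 10 enzymes that rose, 5 had no overlap between the groups, Acat2, Hsd17b7, Msmo1, Sqle and Tm7sf2. That is a smaller share than among all called genes, of which 1802 of 2053 had no overlap. Tm7sf2, a sterol reductase late in the pathway, read 13.59, 14.86, 13.95 and 14.46 in rotenone livers, against 12.80, 12.52, 12.18 and 11.67 in control livers. Replicate 1 lay 0.61 of the way from the control mean to the other 3 rotenone livers, and the log2 change was 1.92 ± 0.23 (adjusted p = 1.6e-05). Sqle, squalene epoxidase, and Acat2, which joins acetyl-CoA units, rose by 5.49-fold and 6.02-fold, with replicate 1 at 0.06 and 0.21 of the way from the control mean to the other 3 rotenone livers. Soat2, which esterifies cholesterol for storage, averaged 12.10 ± 0.48 in rotenone livers and 10.57 ± 0.15 in control livers (log2 change 1.54 ± 0.23, adjusted p = 0.00027), and its groups did not overlap. Srebf2, the transcription factor that drives the pathway, rose by 0.96 ± 0.24 (adjusted p = 0.021), a call lost without control replicate 3 (0.067), rotenone replicate 3 (0.090) or rotenone replicate 4 (0.097). Insig2, which holds the SREBP proteins in the endoplasmic reticulum, fell by 1.42 ± 0.33 (adjusted p = 0.013), a call lost without control replicate 2 (0.055) or rotenone replicate 4 (0.054). With the 8 arrays alone the calls of Acat2 (0.0523), Sqle (0.122), Srebf2 (0.145) and Insig2 (0.12) were lost. Insig1, itself a target of these factors, averaged 13.37 ± 1.05 in rotenone livers and 13.60 ± 0.72 in control livers and did not pass (adjusted p = 0.89).

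Of 17 fatty acid synthesis genes 4 fell and 1 rose (median -0.89), and the falls ranged from 3 to 7 when single livers were left out, the 7 without control replicate 3. Elovl5, an elongase of polyunsaturated fatty acids, read 15.44, 14.45, 14.03 and 14.20 in rotenone livers, against 16.71, 16.47, 16.68 and 17.04 in control livers. Every rotenone liver lay below every control, with replicate 1 nearest to them, and the log2 change was -2.20 ± 0.23 (adjusted p = 4.3e-06). The core enzymes scattered widely among control livers. Fasn, fatty acid synthase, read 11.44, 10.95, 12.46 and 13.66 in rotenone livers, against 13.70, 13.91, 11.75 and 16.44 in control livers, and neither it nor Acly (log2 change -1.52 ± 0.49) passed, with adjusted p of 0.19 and 0.081. Elovl6, which lengthens palmitate, averaged 11.61 ± 1.63 in rotenone livers and 11.79 ± 1.24 in control livers (adjusted p = 0.94).

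Fatty acid oxidation and ketone synthesis gave 8 rises and 1 fall of 23 genes (median 0.36), and PPAR alpha and its targets 8 rises and 2 falls of 23 (median 0.63). PPAR alpha is the nuclear receptor that switches the fasting liver to fat burning. Ech1, a peroxisomal and mitochondrial isomerase of unsaturated fatty acids, read 11.76, 12.78, 12.86 and 12.84 in rotenone livers, against 10.25, 10.22, 10.48 and 9.58 in control livers, with a log2 change of 2.43 ± 0.27 (adjusted p = 8.6e-06). Vnn1, a pantetheinase and a PPAR alpha target, averaged 9.07 ± 0.71 in rotenone livers and 6.18 ± 0.42 in control livers (7.39-fold, adjusted p = 5.7e-06). In both genes the rotenone livers lay above all controls and replicate 1 was the lowest of them. Decr1, a reductase for unsaturated fatty acids, and Pnpla2, the lipase that opens stored triglyceride, rose by 3.69-fold and 3.17-fold. Cpt1a, the gate for fatty acids into mitochondria, read 13.23, 13.65, 13.88 and 12.95 in rotenone livers, against 11.35, 11.60, 13.58 and 11.38 in control livers, and did not pass (adjusted p = 0.13). Control replicate 3 was as high as the rotenone livers there. Fabp1, the abundant fatty acid carrier of hepatocytes, fell by 0.73 ± 0.12 (adjusted p = 0.00084), and Bdh1, which makes the ketone body hydroxybutyrate, fell by 0.99 ± 0.17 (adjusted p = 0.0011), and both calls were lost with the 8 arrays alone (0.0593 and 0.0775).

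Apolipoproteins and lipoprotein assembly genes gave 5 falls and no rise of 21, 3 falls without control replicate 3 or rotenone replicate 4. Apoa1, the main protein of high-density lipoprotein, read 15.33, 14.74, 14.56 and 14.78 in rotenone livers, against 17.16, 16.34, 16.47 and 17.05 in control livers (log2 change -1.90 ± 0.18, adjusted p = 1e-06). The gap between the groups was larger than the spread within either. Apob, the scaffold of very low density lipoprotein, averaged 19.12 ± 0.11 in rotenone livers and 19.26 ± 0.06 in control livers and did not pass (adjusted p = 0.40).

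Bile acid synthesis and its control gave 4 rises and 1 fall of 17 genes, and bile acid and organic anion transporters 5 rises and 1 fall of 16. Cyp27a1, the sterol 27-hydroxylase of the alternative pathway, averaged 14.89 ± 0.39 in rotenone livers and 13.54 ± 0.56 in control livers (adjusted p = 0.0026), while Cyp7b1, the next enzyme of that pathway, averaged 7.04 ± 0.19 in rotenone livers and 8.33 ± 0.61 in control livers (adjusted p = 0.0020). Cyp7a1, the rate-limiting enzyme of bile acid synthesis, read 14.33, 17.29, 17.73 and 18.76 in rotenone livers, against 14.47, 13.01, 13.49 and 16.16 in control livers. Replicate 1 was inside the control range, the other 3 rotenone livers were above it, and the change did not pass with it (adjusted p = 0.22) or without it (0.094). Abcc3, an exporter of bile acids and conjugates into blood, read 7.05, 12.03, 10.85 and 11.88 in rotenone livers, against 6.44, 6.22, 6.46 and 6.09 in control livers. It was bright in 3 rotenone livers and dim in replicate 1 and all controls, with a log2 change of 4.15 ± 0.65 (adjusted p = 0.00040), and 5.28 without replicate 1, but an adjusted p of 0.0563 with the 8 arrays alone. Abcb1a, a drug efflux pump, rose by 2.34 ± 0.38 (adjusted p = 0.00062). Slc22a7, an organic anion carrier, fell by 1.20 ± 0.17 (adjusted p = 0.00014). Another such carrier, Slc22a8, was not in this list and fell by 4.52, as given further below.

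**Figure D2:**
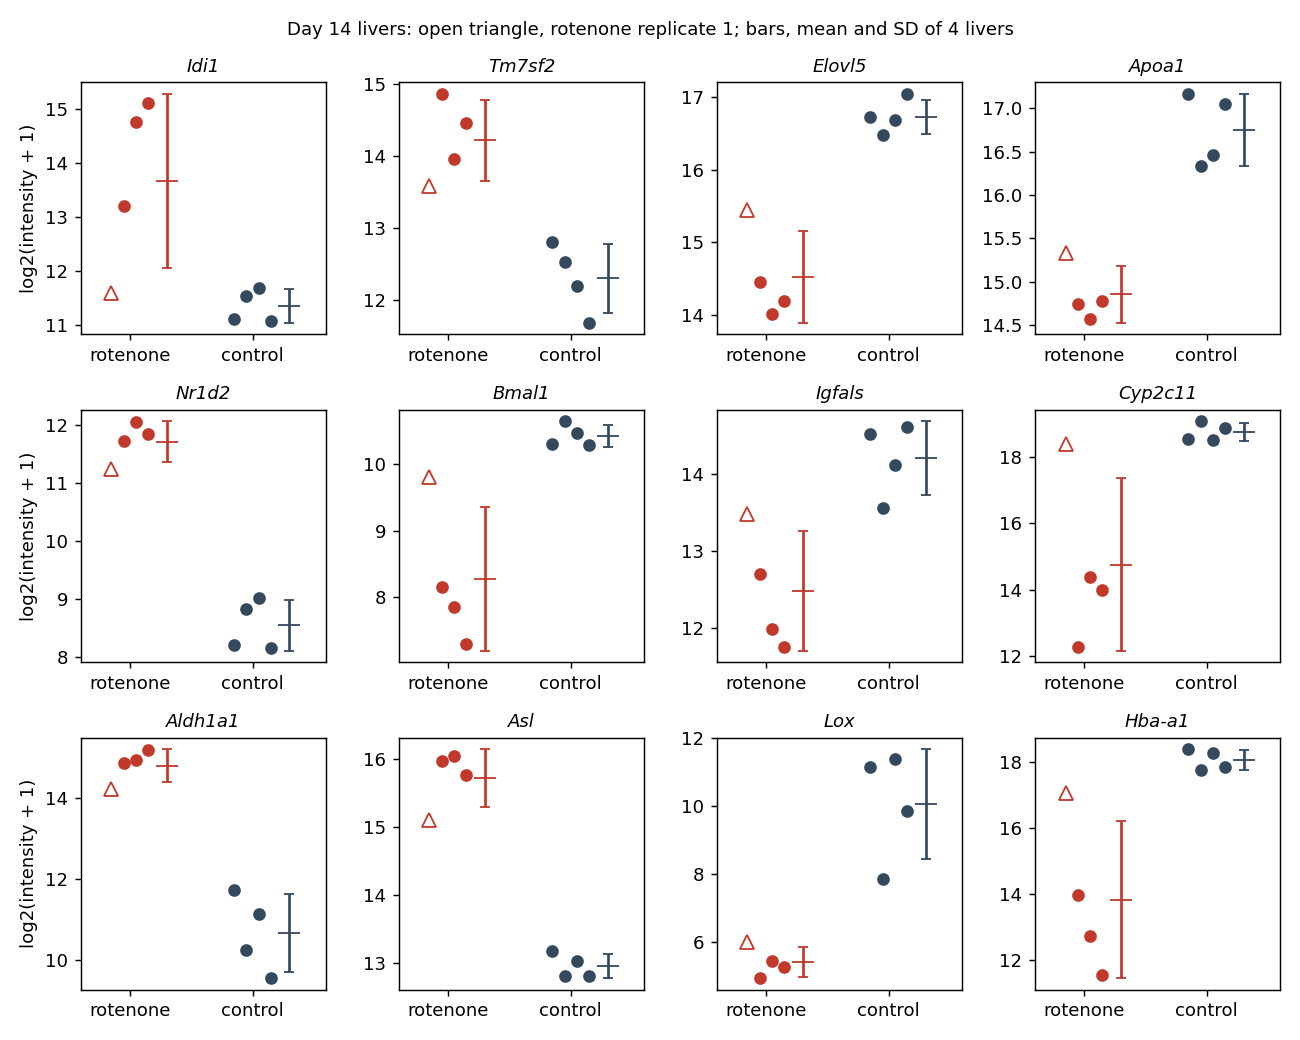
log2(intensity + 1) of 12 genes in each day 14 liver, rotenone left of control, with mean and SD of 4 livers beside the points and rotenone replicate 1 as an open triangle. Replicate 1 lies with the controls for Idi1 and near them for Cyp2c11 (18.40 against 18.50 to 19.07), and with the other rotenone livers for Nr1d2, Aldh1a1 and Lox.

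Clock genes moved in both directions at once. In hepatocytes the factors Bmal1 and Clock or Npas2 switch on the Per, Cry, Nr1d and Dbp genes, and the products of Nr1d1 and Nr1d2 (REV-ERB) in turn repress Bmal1. Of 18 clock genes 5 rose and 6 fell. The counts were the same without rotenone replicate 1, but 4 fell without control replicate 2 or 4 or rotenone replicate 2, 3 or 4, and 3 rose and 3 fell with the 8 arrays alone. Nr1d2 read 11.24, 11.72, 12.05 and 11.85 in rotenone livers, against 8.21, 8.83, 9.03 and 8.16 in control livers, and Nr1d1 rose with it, by 6.38 ± 0.52 (adjusted p = 1.8e-07). All 4 rotenone livers stood above all controls for both genes (for Nr1d2, log2 change 3.16 ± 0.35, adjusted p = 7.7e-06). Dbp, a clock output factor, read 7.15, 9.58, 9.66 and 10.09 in rotenone livers, against 6.23, 5.62, 6.22 and 5.50 in control livers (log2 change 3.23 ± 0.63, adjusted p = 0.0032). Replicate 1 was the lowest rotenone liver, and the change was 3.89 without it. Per3 rose by 1.39 ± 0.31 (adjusted p = 0.010, and 0.095 with the 8 arrays alone), whereas Per1 and Per2 averaged 6.79 ± 0.59 and 6.94 ± 0.63 in rotenone livers and 7.07 ± 0.60 and 7.63 ± 0.42 in control livers and did not pass. Cry1 read 6.86, 6.28, 6.13 and 6.46 in rotenone livers, against 8.73, 9.03, 9.67 and 7.89 in control livers, and its groups did not overlap (log2 change -2.40 ± 0.29, adjusted p = 2.1e-05), with a smaller fall of 0.67 at its other cluster.

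Bmal1 read 9.80, 8.14, 7.85 and 7.28 in rotenone livers, against 10.30, 10.65, 10.47 and 10.30 in control livers. All rotenone livers were below the controls, replicate 1 only slightly so (log2 change -2.16 ± 0.41, adjusted p = 0.0027, and -2.67 without replicate 1). Its partners Npas2 (-1.67 ± 0.46, adjusted p = 0.038) and Clock (-0.66 ± 0.19, adjusted p = 0.046) were near the threshold, and leaving out any of 6 livers ended either call (largest adjusted p 0.150 and 0.154, both without rotenone replicate 4), as did the 8 arrays alone (0.174 and 0.164). The Bmal1 promoter is shown as the only clock promoter in the table with the element TAGGTCA, which REV-ERB and ROR proteins bind. It is in capitals, starts 16 bases before the transcription start, and the sequence is again the 250 bases before the start in RefSeq (GRCr8, chr1:176766078-176766327, plus strand).
Bmal1: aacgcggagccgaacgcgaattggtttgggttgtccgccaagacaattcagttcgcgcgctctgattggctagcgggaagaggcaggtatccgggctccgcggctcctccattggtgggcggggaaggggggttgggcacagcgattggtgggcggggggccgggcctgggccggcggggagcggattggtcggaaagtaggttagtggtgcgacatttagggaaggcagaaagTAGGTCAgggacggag
The promoter of Ciart, a repressor of Bmal1 and Clock, is shown for the opposite case, the E-box CACGTG that Bmal1 and Clock bind. The 3 copies in capitals start 93, 35 and 21 bases before the start (GRCr8, chr2:186112247-186112496, minus strand).
Ciart: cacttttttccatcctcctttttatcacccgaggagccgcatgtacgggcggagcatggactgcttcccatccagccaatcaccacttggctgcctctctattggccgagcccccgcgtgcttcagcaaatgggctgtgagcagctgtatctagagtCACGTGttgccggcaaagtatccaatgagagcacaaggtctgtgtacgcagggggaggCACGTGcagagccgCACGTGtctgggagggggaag
Ciart was added after its values were seen. It averaged 5.88 ± 0.54 in rotenone livers and 4.97 ± 0.11 in control livers, where it was at the level of the negative controls, so that it was at least 1.52-fold higher (adjusted p = 0.0065). On either strand, TAGGTCA was found in 2.26% of all promoters and CACGTG in 5.79%, against 4 of 16 clock promoters (25%) for CACGTG. Those 4 were Bhlhe40, Bhlhe41, Ciart and Tef. The promoters of Nr1d1, Nr1d2, Dbp and Per3, which rose, held no CACGTG within these 250 bases, so Ciart does not stand for them.

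In the growth hormone axis more genes fell than rose. Growth hormone acts through its receptor and Stat5 to make insulin-like growth factor and its carrier proteins. Of 20 genes of the axis 5 fell and 2 rose, and 8 fell without rotenone replicate 1, while 3 fell without control replicate 1, rotenone replicate 2 or rotenone replicate 3. Igfals, the subunit that keeps the growth factor in blood, read 13.47, 12.70, 11.98 and 11.75 in rotenone livers, against 14.53, 13.56, 14.12 and 14.62 in control livers (log2 change -1.73 ± 0.29, adjusted p = 0.00090). All rotenone livers were lower, with replicate 1 just under the lowest control. Igf1 fell by 1.23 ± 0.17 (adjusted p = 0.00011) and the receptor gene Ghr by 0.75 ± 0.14 (adjusted p = 0.0017). The Ghr call was lost after quantile normalisation (-0.39, adjusted p = 0.198) and with the 8 arrays alone (0.066). Socs2, a Stat5 target, read 10.96, 7.73, 6.52 and 7.40 in rotenone livers, against 11.77, 12.08, 12.62 and 10.07 in control livers. It passed only without replicate 1, which lay inside the control range (adjusted p = 0.054 with it and 0.0093 without it). Igfbp1, a carrier that insulin suppresses, ranged over 10.95 to 16.89 in rotenone livers and 8.89 to 15.19 in control livers and did not pass. Opposite to the falls, Igfbp2, another carrier of the growth factor, rose by 4.43. Its call was kept whichever day 14 liver was left out (largest limma adjusted p 0.00041, without rotenone replicate 2). With the 8 arrays alone it was kept as well (0.0243).

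Lists of genes that differ between male and female rat liver did not move one way, with 2 rises and 1 fall of 7 male-predominant genes and 2 rises and 2 falls of 10 female-predominant genes (1 fall without control replicate 3 or 4 or rotenone replicate 1 or 2). Cyp2c11, the male-specific steroid hydroxylase of rat liver, read 18.40, 12.27, 14.39 and 13.99 in rotenone livers, against 18.55, 19.07, 18.50 and 18.86 in control livers. Its signal was far lower in 3 livers and just below the control range in replicate 1 (log2 change -3.98 ± 0.70, adjusted p = 0.0013, and -5.20 without replicate 1). Cyp2c7 fell by 2.29 ± 0.39 (adjusted p = 0.00088), though its dimmer cluster changed by only -0.13. Cux2, a repressor that is female-predominant in rodent liver, read 6.40, 7.06, 6.15 and 6.89 in rotenone livers, against 5.48, 5.25, 5.65 and 5.49 in control livers (log2 change 1.16 ± 0.19, adjusted p = 0.00061). Cyp2c12, the female-specific counterpart of Cyp2c11, went the other way, at 10.39 ± 0.83 in rotenone livers and 12.46 ± 1.21 in control livers. That call (adjusted p = 0.041) was lost without control replicate 3 (0.129), control replicate 4 (0.152), rotenone replicate 1 (0.111) or rotenone replicate 2 (0.132). Cyp2c13, another male-predominant member, averaged 19.11 ± 0.20 in rotenone livers and 19.29 ± 0.05 in control livers and did not pass (adjusted p = 0.32). Members of the Cyp2c family are close in sequence and can share probes, so single members are uncertain. Of 10 measured, 2 rose and 4 fell, and with the 8 arrays alone the calls of Cyp2c11 (0.0916), Cyp2c7 (0.0626) and Cyp2c12 (0.118) were lost. Cyp2c55, a member induced by foreign compounds in rodents, read 7.55, 11.65, 13.05 and 13.52 in rotenone livers, against 6.16, 6.16, 6.78 and 6.18 in control livers, and the change was 5.12 ± 0.75 (adjusted p = 0.00019), or 6.42 without replicate 1. Esr1, the estrogen receptor alpha gene, fell by 2.63 ± 0.39 (adjusted p = 0.00020).

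Enzymes that clear foreign compounds rose more often than they fell. Among cytochromes P450 of the families 1, 2A, 2B, 2D, 2E, 2J and 3A with their reductase, 10 of 23 rose and 2 fell, 5 rose without control replicate 4, rotenone replicate 2 or rotenone replicate 4, and 6 without rotenone replicate 3. Cyp1a1, the classic target of the aryl hydrocarbon receptor, read 6.44, 11.77, 12.73 and 12.92 in rotenone livers, against 6.94, 7.47, 6.12 and 6.16 in control livers. It was bright in 3 rotenone livers and at the control level in replicate 1. The call (log2 change 4.29 ± 1.03, adjusted p = 0.016) became 5.80 without replicate 1 and was lost without rotenone replicate 2 (adjusted p = 0.062), 3 (0.069) or 4 (0.074). Cyp2b1, a target of the constitutive androstane receptor, averaged 14.42 ± 0.42 in rotenone livers and 12.04 ± 1.35 in control livers (adjusted p = 0.012), a call lost without control replicate 4 (0.056) or rotenone replicate 2 (0.052). With the 8 arrays alone the calls of Cyp1a1 (0.123), Cyp2b1 (0.069) and Cyp3a18 (0.0594) were lost. Cyp3a18 rose by 1.53 ± 0.30 (adjusted p = 0.0038) and Cyp2j3, an epoxygenase of arachidonic acid, fell by 1.47 ± 0.22 (adjusted p = 0.00026).

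Aldh1a1, a retinaldehyde dehydrogenase of pericentral hepatocytes, read 14.22, 14.87, 14.94 and 15.19 in rotenone livers, against 11.73, 10.24, 11.15 and 9.56 in control livers. The rotenone livers lay close together, far above scattered controls (log2 change 4.14 ± 0.38, adjusted p = 8.8e-07). Ces2c, a carboxylesterase, rose 8.74-fold (adjusted p = 1.5e-06), and its other cluster rose by 3.03. Glutathione S-transferases gave 7 rises and no fall of 19, but 3 rises without rotenone replicate 2 and 4 without control replicate 4. Gsta3 averaged 9.37 ± 0.37 in rotenone livers and 8.03 ± 0.38 in control livers (adjusted p = 0.0017). The oxidant-response genes Nqo1 and Hmox1 averaged 10.13 ± 0.38 and 8.36 ± 0.34 in rotenone livers and 9.93 ± 0.24 and 8.21 ± 0.22 in control livers and did not pass (adjusted p = 0.86 and 0.83). Of 28 NRF2 targets and antioxidant enzymes 4 rose and none fell, and 2 rose without rotenone replicate 2. Pericentral hepatocyte genes gave 7 rises and 1 fall of 14 (median 0.67), and periportal ones 3 rises and 2 falls of 15 (median 0.24).

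Changes in genes for the target of rotenone were small. Of 34 complex I subunits 7 rose and none fell, with a median change of 0.30, and no fall was seen in the 35 nuclear subunits of complexes II to V, of which 7 rose (median 0.27). Both counts depended on single livers. Without rotenone replicate 2, 0 complex I subunits and 2 of the others passed, without control replicate 4 only 1 complex I subunit passed, without control replicate 2 or rotenone replicate 4 only 4 of the others, and with the 8 day 14 arrays alone the counts were 0 and 1. The mean level of the complex I list was 9.80, 10.10, 9.73 and 9.79 in rotenone livers, against 9.70, 9.55, 9.59 and 9.36 in control livers. Replicate 2 was the highest of the 8, and the other 3 rotenone livers lay just above the highest control. Ndufs7 and Ndufb2 rose by 0.74 ± 0.17 and 0.73 ± 0.18, and both calls were lost without rotenone replicate 2 (adjusted p = 0.059 and 0.084) or control replicate 4 (0.057 and 0.074), and with the 8 arrays alone (0.1 and 0.11). Cox4i1, a subunit of complex IV, rose by 0.70 ± 0.11 (adjusted p = 0.00036) and kept its call whichever day 14 liver was left out. Ppargc1a, the coactivator of mitochondrial genes, averaged 9.22 ± 0.46 in rotenone livers and 7.25 ± 0.86 in control livers (3.91-fold, adjusted p = 0.0019).

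Idh2, the mitochondrial NADP-dependent isocitrate dehydrogenase, was the clearest change of mitochondrial metabolism. It read 11.55, 11.99, 11.72 and 11.75 in rotenone livers, against 10.01, 10.07, 9.58 and 9.87 in control livers (log2 change 1.87 ± 0.14, adjusted p = 8.3e-08). Replicate 1 did not stand apart for this gene. The citrate cycle with pyruvate dehydrogenase gave 7 rises and 1 fall of 23, the fall being Pdk1, a kinase that inhibits pyruvate dehydrogenase (-0.81 ± 0.15, adjusted p = 0.0015). Clpx, a chaperone of the mitochondrial matrix protease, read 14.60, 13.36, 13.55 and 12.95 in rotenone livers, against 15.24, 15.42, 15.27 and 15.29 in control livers (log2 change -1.69 ± 0.25, adjusted p = 0.00028). The controls agreed closely and all rotenone livers were lower.

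Genes of sugar metabolism moved both ways. Glycolysis and gluconeogenesis gave 4 rises and 7 falls of 26, with 2 rises without control replicate 4 or rotenone replicate 2. Glycogen synthesis and breakdown gave 3 rises and 2 falls of 12, with 1 rise without rotenone replicate 2 or 3 and 1 fall without rotenone replicate 2 or 4. Pklr, the liver pyruvate kinase, read 14.24, 12.76, 13.28 and 12.78 in rotenone livers, against 15.33, 15.33, 15.19 and 15.66 in control livers (log2 change -2.11 ± 0.33, adjusted p = 0.00046). Gbe1, the glycogen branching enzyme, read 13.99, 13.70, 13.71 and 13.43 in rotenone livers, against 14.93, 15.32, 15.46 and 15.56 in control livers (log2 change -1.61 ± 0.15, adjusted p = 1e-06). Neither gene had an overlap between the groups. Tkt, transketolase of the pentose phosphate pathway, fell by 0.90 ± 0.18 (adjusted p = 0.0030). G6pc1, glucose-6-phosphatase, which releases glucose into blood, averaged 12.80 ± 0.22 in rotenone livers and 15.16 ± 0.66 in control livers (adjusted p = 0.023), without any overlap. Its call was lost in the fit without control replicate 2 (0.082), control replicate 3 (0.062), rotenone replicate 2 (0.067) or rotenone replicate 4 (0.052), and was kept with the 8 arrays alone (0.0059). Pck1, the first committed step of glucose synthesis, averaged 17.07 ± 0.86 in rotenone livers and 17.85 ± 0.82 in control livers and did not pass.

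In nitrogen metabolism 4 of 16 urea cycle and ammonia genes rose and none fell. Asl, argininosuccinate lyase, read 15.10, 15.96, 16.04 and 15.76 in rotenone livers, against 13.18, 12.82, 13.03 and 12.80 in control livers (log2 change 2.76 ± 0.23, adjusted p = 3.1e-07). Cps1, the entry enzyme of the cycle, averaged 19.30 ± 0.08 in rotenone livers and 19.12 ± 0.02 in control livers, without overlap, and did not pass (adjusted p = 0.18). Amdhd1, an enzyme of histidine breakdown, rose by 2.02 ± 0.35 (adjusted p = 0.0012) and Slc16a10, a carrier of aromatic amino acids, rose 3.49-fold (adjusted p = 0.0071, and 0.101 with the 8 arrays alone). Of 34 genes of amino acid breakdown 7 rose and 3 fell, but 1 rose without rotenone replicate 2, 3 without control replicate 3 and 4 without rotenone replicate 4, and 1 fell without control replicate 2. Sat2 and Amd1, enzymes of polyamine metabolism, rose by 2.11 ± 0.17 (adjusted p = 2e-07) and 1.43 ± 0.17 (adjusted p = 1.4e-05).

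The integrated stress response, in which ATF4 turns on amino acid synthesis genes, was split. Of 24 genes 5 rose and 4 fell, with 2 falls without control replicate 4, rotenone replicate 2 or rotenone replicate 4. Psat1, which makes serine, read 7.91, 7.97, 8.65 and 7.95 in rotenone livers, against 6.63, 6.27, 6.20 and 6.31 in control livers (log2 change 1.77 ± 0.22, adjusted p = 3.2e-05), and Asns, asparagine synthetase, rose by 1.16 ± 0.21 (adjusted p = 0.0018). Opposite to them, Aldh1l2, a mitochondrial enzyme of folate metabolism, read 11.22, 9.85, 9.83 and 9.30 in rotenone livers, against 12.35, 11.87, 12.82 and 12.10 in control livers (log2 change -2.24 ± 0.31, adjusted p = 0.00013). Sesn2, an inhibitor of the growth kinase mTORC1, fell by 2.16 ± 0.36 (adjusted p = 0.00070). Atf4 itself averaged 9.54 ± 0.33 in rotenone livers and 8.81 ± 0.17 in control livers, without overlap, but did not pass (adjusted p = 0.057), nor did Ddit3 (0.13) or Fgf21 (0.80), a hormone of this response that read near the negative controls in both groups, at 5.37 ± 0.36 in rotenone livers and 5.20 ± 0.27 in control livers. Mthfd1, a cytosolic enzyme of folate metabolism, rose by 1.85 ± 0.27 (adjusted p = 0.00018).

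Some genes for making and for degrading proteins rose, while some for folding secreted proteins fell. Cytosolic ribosomal proteins gave 12 rises of 34 (median 0.38), but 6 without rotenone replicate 2, 7 without control replicate 2 or 4 and 1 with the 8 arrays alone. Rplp2 rose by 0.83 (adjusted p = 0.057 without rotenone replicate 2 and 0.126 with the 8 arrays alone). Proteasome subunits gave 6 rises of 30 and autophagy and lysosome genes 8 rises and 1 fall of 29. Psmb6, a catalytic subunit of the proteasome, averaged 11.92 ± 0.28 in rotenone livers and 11.12 ± 0.17 in control livers (adjusted p = 0.00098). Gabarapl1, which marks autophagosomes, averaged 15.30 ± 0.43 in rotenone livers and 13.53 ± 0.58 in control livers (adjusted p = 0.00012), and Ctsl, cathepsin L, 15.08 ± 0.38 in rotenone livers and 13.83 ± 0.29 in control livers (adjusted p = 6.1e-05). In contrast, 8 of 24 endoplasmic reticulum folding and degradation genes fell and 2 rose (median -0.44), although 3 fell without rotenone replicate 3 and 4 without control replicate 4, and no gene rose without control replicate 2. Hyou1, a chaperone of that compartment, fell by 1.12 ± 0.27 (adjusted p = 0.017), a call lost without control replicate 4 (0.076) or rotenone replicate 3 (0.075) and not seen at its dimmer cluster (-0.30). Hspa5, its most abundant chaperone, averaged 15.96 ± 0.15 in rotenone livers and 16.29 ± 0.37 in control livers and did not pass.

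Globins and some other red cell genes were lower in rotenone livers. Whether these mRNAs came from blood in the tissue was not tested. Globin genes are near-identical copies that can share probes, so single globins are uncertain and their falls are not separate counts. Of 25 genes 8 fell, none rose and 17 did not pass (median -0.18), and 3 were at the level of the negative controls in both groups. The summed signal of the list was 12.24 to 17.19 log2 units in rotenone livers and 18.11 to 18.68 in control livers. Hba-a1 read 17.07, 13.97, 12.72 and 11.55 in rotenone livers, against 18.40, 17.77, 18.27 and 17.85 in control livers (log2 change -4.25 ± 0.64, adjusted p = 0.00028, and 0.0569 with the 8 arrays alone, and -5.33 without replicate 1). The 4 rotenone livers were far apart, with replicate 1 nearest to the controls. Alas2, the heme synthesis enzyme of immature red cells, was lower in every rotenone liver. It read 6.58, 5.24, 5.54 and 5.31 in rotenone livers, against 8.67, 8.20, 8.57 and 8.38 in control livers (log2 change -2.79 ± 0.39, adjusted p = 0.00011).

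Markers of 2 other cell types of the liver moved with the groups. Stellate cell and fibroblast markers gave 10 falls and no rise of 20 (median -0.38), and 7 to 10 falls when single livers were left out. Their summed signal was 14.27 to 14.88 in rotenone livers and 15.08 to 15.27 in control livers, and 2 of the 20 were at the negative control level in both groups. Lox, which cross-links collagen, read 6.01, 4.94, 5.44 and 5.26 in rotenone livers, against 11.15, 7.86, 11.38 and 9.86 in control livers (log2 change -4.65 ± 0.80, adjusted p = 0.0011). It varied widely among controls, and 2 of the 4 rotenone livers were at the negative control level, so the size of the fall is uncertain. Col3a1, a fibrillar collagen, read 10.06, 9.24, 9.30 and 8.94 in rotenone livers, against 10.50, 10.61, 10.59 and 10.74 in control livers (log2 change -1.23 ± 0.18, adjusted p = 0.00027), and Pdgfrb, a receptor of stellate cells, fell by 1.31 ± 0.22 (adjusted p = 0.00064).

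Macrophage markers gave 4 falls and no rise of 18 (median -0.53). Their summed signal was 13.88 to 14.48 in rotenone livers and 14.66 to 15.17 in control livers, and 1 of the 18 was at the negative control level in both groups. Clec4f, a lectin of Kupffer cells, read 10.83, 11.58, 11.79 and 11.11 in rotenone livers, against 12.50, 12.46, 12.67 and 13.25 in control livers (log2 change -1.40 ± 0.24, adjusted p = 0.0012). Here replicate 1 was the lowest rotenone liver, farther from the controls than the others. Cd163, a scavenger receptor for hemoglobin, fell by 0.97 ± 0.22 (adjusted p = 0.0099, and 0.0561 with the 8 arrays alone). Sinusoidal endothelial markers gave 1 rise and 1 fall of 14, and Stab2, a scavenger receptor of those cells, averaged 9.46 ± 0.17 in rotenone livers and 9.47 ± 0.14 in control livers. Cholangiocyte markers gave 1 rise of 10, Epcam (log2 change 1.15 ± 0.24, adjusted p = 0.0056). T and NK cell markers gave no call of 16, neutrophil markers none of 13 and B and plasma cell markers 1 fall of 10. Cd3e, of T cells, read 5.10 to 5.32 in rotenone livers and 5.07 to 5.10 in control livers, and S100a8, of neutrophils, 3.70 to 4.36 in rotenone livers and 3.73 to 4.23 in control livers, all near the negative controls. The part of these cell types in the other changes was not tested.

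Of 36 complement and coagulation genes 6 fell and none rose. C6, a subunit of the membrane attack complex, read 11.17, 11.65, 11.60 and 11.56 in rotenone livers, against 14.09, 13.19, 14.04 and 14.51 in control livers (log2 change -2.46 ± 0.25, adjusted p = 2e-06). All 4 rotenone livers were low together. Acute phase proteins gave 2 rises and 3 falls of 23, among them a rise of Lbp, the lipopolysaccharide-binding protein. It read 15.30, 16.10, 16.55 and 16.51 in rotenone livers, against 13.80, 13.85, 13.34 and 13.97 in control livers (log2 change 2.38 ± 0.34, adjusted p = 0.00018). Interferon response and antigen presentation genes gave 4 falls of 29 (median -0.51), but 1 without rotenone replicate 2 and 2 without control replicate 3, control replicate 4 or rotenone replicate 4. Rsad2, an antiviral enzyme, fell by 1.24 ± 0.30 (adjusted p = 0.017), a call lost without control replicate 3 (0.057) or rotenone replicate 2 (0.071).

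Some markers of proliferation were lower in rotenone livers, with a wide scatter among controls. Mki67, which marks cycling cells, read 5.33, 5.12, 5.34 and 5.31 in rotenone livers, against 7.35, 6.07, 8.00 and 7.50 in control livers (log2 change -1.95 ± 0.33, adjusted p = 0.00086). Control replicate 2 was the lowest control but still above every rotenone liver. The rotenone livers lay near the negative controls, so the size of the fall is uncertain. Mitosis and spindle genes gave 5 falls and 1 rise of 36, but the falls ranged from 1, without control replicate 3, rotenone replicate 2 or rotenone replicate 4, to 11 without control replicate 2. Top2a, a topoisomerase of dividing cells, was at the negative control level in all rotenone livers and at least 2.35-fold lower than in control livers (adjusted p = 0.017), a call lost without control replicate 3 (0.073), rotenone replicate 2 (0.053) or rotenone replicate 4 (0.051) and with the 8 arrays alone (0.0761). Ccnd1, cyclin D1, which opens the cell cycle, averaged 5.75 ± 0.20 in rotenone livers and 7.00 ± 0.37 in control livers (adjusted p = 0.00020).

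Several of the strongest changes lay outside these pathways. Stac3, known from the calcium release machinery of muscle, read 10.08, 7.48, 7.20 and 6.81 in rotenone livers, against 14.43, 13.43, 13.98 and 15.18 in control livers (82.3-fold lower, adjusted p = 3.2e-07). Serpina7, the thyroxine-binding globulin, read 9.92, 12.13, 11.75 and 11.42 in rotenone livers, against 7.04, 5.87, 5.62 and 6.11 in control livers (35.4-fold higher, adjusted p = 1.8e-07). In both genes replicate 1 was the rotenone liver nearest the controls yet clear of them. Hsd17b2, which inactivates estradiol and testosterone, read 12.25, 14.68, 14.91 and 14.61 in rotenone livers, against 9.78, 7.87, 10.45 and 8.98 in control livers (28.7-fold higher, adjusted p = 0.00018). Sntb1, a syntrophin of the membrane scaffold, rose 24.0-fold (adjusted p = 6.6e-07), and its 4 rotenone livers lay within 11.57 to 12.73 against 7.06 to 8.27 in control livers. Upp2, a uridine phosphorylase of liver, rose 19.7-fold (adjusted p = 0.00014), with control replicate 3 at 10.77 and the other controls at 8.26 to 8.59. Pla2g12a, a secreted phospholipase, rose 16.6-fold (adjusted p = 1e-06).

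Among falls of like size, Slc22a8, a carrier of organic anions, read 13.30, 9.01, 9.88 and 9.69 in rotenone livers, against 15.09, 14.68, 14.81 and 15.40 in control livers (23.0-fold lower, adjusted p = 2.2e-05). Replicate 1 lay between the other rotenone livers and the controls. Paqr9, a receptor of the progestin and adipoQ family, fell 20.4-fold (adjusted p = 3.8e-07). Ifgga2l1, named for a family of interferon gamma inducible GTPases, fell 34.4-fold (adjusted p = 0.0092), with 8.80 to 11.44 in rotenone livers and 14.01 to 15.41 in control livers. Gimd1, a GTPase of the GIMAP group, was at the negative control level in all rotenone livers and at least 5.33-fold lower than in control livers (adjusted p = 1.6e-06).

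Against the earlier days, each with its own controls, the day 14 changes were compared by a limma test of the difference between effects. With all 24 arrays only 7 genes differed between day 14 and day 3 (0.0318%), all of them called at day 14. Tm7sf2 changed by -0.49 at day 3 and 1.92 at day 14 (difference 2.42, adjusted p = 0.0056), Psat1 by -0.39 and 1.77 (adjusted p = 0.010), Acsm2, a mitochondrial ligase of medium-chain acids, by 0.50 and 3.76 (adjusted p = 0.035), and Dsg2, a desmosomal cadherin, by -0.27 and 0.79 (adjusted p = 0.035). Apoa1 changed by -0.11 at day 3 and -1.90 at day 14 (adjusted p = 0.010), and Apoa4, a lipoprotein of absorbed fat, by -1.76 and -4.57 (adjusted p = 0.0048). Rrm2, which makes deoxynucleotides for DNA synthesis, fell by 5.90 at day 3 and by 1.93 at day 14 (adjusted p of the difference = 0.035). Its rotenone livers averaged 5.34 at day 3 and 5.45 at day 14, near the negative controls on both days, against 11.24 in day 3 controls and 7.38 in day 14 controls, so neither fall nor their difference is measured in full. Its control livers read 7.84, 5.48, 8.31 and 7.91 at day 14, and its day 14 call (adjusted p = 0.015) was lost without control replicate 3 (0.063) or control replicate 4 (0.058), and with the 8 arrays alone (0.102).

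Without rotenone replicate 1 the count of genes that differed between day 14 and day 3 was 156, with 99 higher (0.449%) and 57 lower (0.259%), and all 7 genes were among them. The liver left out was the one nearest to day 3, which by itself favours a higher count, so these counts are a description and not a test. Of the cholesterol synthesis enzymes, 16 of 17 were then higher at day 14 than at day 3, where the median change of the list was -0.54. With replicate 1 included, only 1 of the 17, Tm7sf2, passed that comparison. Cyp2c11 differed by -4.86 and Hba-a1 by -5.10 without it, and with replicate 1 included neither passed (adjusted p = 0.25 and 0.14).

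Day 14 differed from day 1 in 479 genes (2.17%), 274 higher and 205 lower, and 261 of them were called at day 14 itself. Cyp7a1 changed by -4.95 at day 1 and by 2.74 at day 14, a difference of 7.70 (adjusted p = 0.026), although neither its day 14 change nor its difference from day 3 passed. Ccnd1 changed by 1.70 at day 1 and -1.25 at day 14 (adjusted p = 2.2e-06) and Idh2 by -0.37 and 1.87 (adjusted p = 2.2e-06). Cyp2c24, a further member of the Cyp2c family, changed by 0.52 at day 1, 3.19 at day 3 and 5.69 at day 14 (adjusted p of the difference from day 1 = 0.00016). Other genes were already changed to a like size on day 1. Asl changed by 2.52 at day 1 and 2.55 at day 3, and Gbe1 by -1.72 at day 1 and -1.95 at day 3, and neither differed from its day 14 effect in the test (adjusted p from 0.83 to 0.95).

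**Figure D3:**
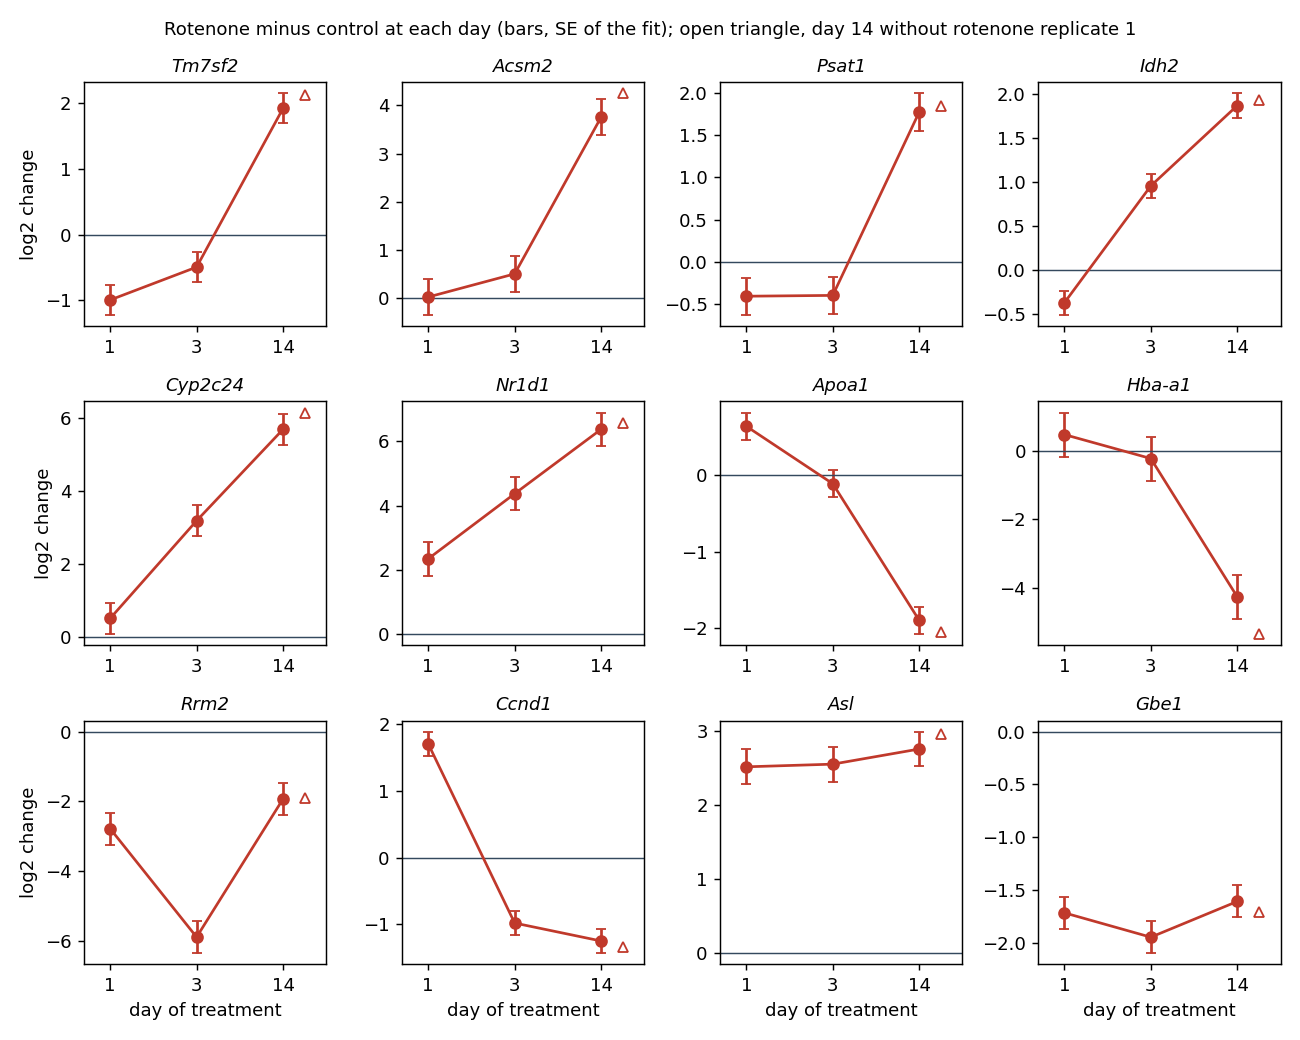
Log2 change, rotenone minus control of the same day, at day 1, 3 and 14 for 12 genes, with SE of the limma fit as bars; the open triangle is day 14 without rotenone replicate 1. Tm7sf2, Acsm2 and Psat1 lie at 0.50 or below at day 1 and day 3 and at 1.77 to 3.76 at day 14, while Asl lies at 2.52 to 2.76 and Gbe1 at -1.95 to -1.61 on all days.

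The intermediate place of replicate 1 differed by gene group. For each gene called in the fit without it, its position was set on a scale on which 0 is the mean of the control livers and 1 the mean of the other 3 rotenone livers. Over 2215 genes its median position was 0.569, with quartiles of 0.350 and 0.771, and in 459 genes (20.7%) it lay inside the range of the control livers. The same measure gave medians of 1.12, 0.972 and 1.04 for rotenone replicates 2, 3 and 4, with 1.77%, 3.63% and 2.22% of genes inside the control range. Its distance from controls was nearer to the day 3 change than to that of the other 3 livers in 66.3% of genes, compared with 20.5%, 29.1% and 20.7% for replicates 2, 3 and 4. This likeness to day 3 is what set replicate 1 apart in the first place, and the other 3 livers were each held against a mean that includes replicate 1, so the shares describe the choice and support nothing. Genes that rose had a median position of 0.624 and genes that fell 0.484.

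Among lists with at least 5 called members, replicate 1 was nearest to the controls for cholesterol synthesis enzymes, at a median position of 0.06 with 8 of 15 called members inside the control range, then for the Cyp2c family (0.27), the growth hormone axis (0.28), acute phase proteins (0.30) and the clock (0.32). It was nearest to the other rotenone livers for P450 enzymes (0.80) and complex I subunits (0.84), and among lists with 3 called members it was at 0.12 for tubulins and 0.27 for the glucocorticoid response, and passed the other livers for DNA replication (1.06) and macrophage markers (1.21). Of 52 lists with at least 3 called members, 20 had a position below 0.5 and 6 above 0.75. These are descriptions of 1 liver, with no test, and its food intake, body weight and hour of sampling were not given in the sources used here.

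**Figure D4:**
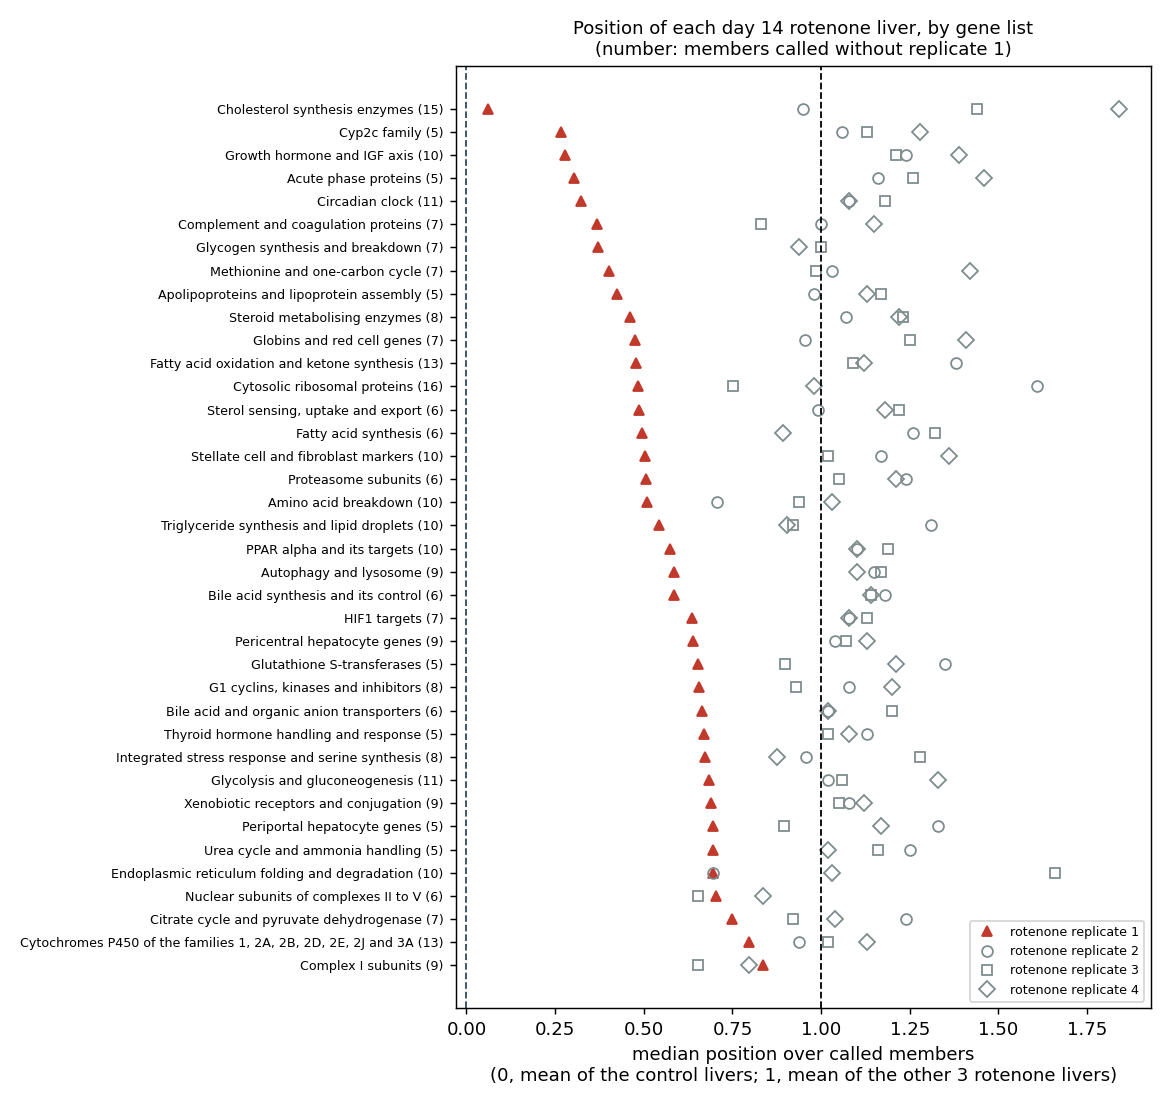
Median position of each day 14 rotenone liver over the called members of 38 lists, where 0 is the mean of the control livers and 1 the mean of the other 3 rotenone livers; members are those called in the fit without the liver shown, and the number after each list counts them for replicate 1. Replicate 1 (filled triangles) runs over 0.06 to 0.84 and the other 3 livers over 0.65 to 1.84, with replicate 1 the lowest of the 4 in 35 of 38 lists.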

How the data were processed

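Expression was measured in 24 rat livers, 4 for each of 6 groups of rotenone or control food at day 1, 3 and 14, on the Affymetrix Rat Transcriptome Array 1.0. The deposited values are linear array intensity values that the authors made with correction for GC content, Signal Space Transformation and RMA summarisation. They ran from 0.154 to 998430. Intensities hold no counts, so precision rests on the number of arrays.

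The 1738 control probe sets were left out, and log2(intensity + 1) of 68842 clusters was tested with limma 3.58.1 (R 4.3.3) on 6 group means, with Benjamini-Hochberg adjustment over all clusters. No further normalisation was applied. Probe sets were named through the platform annotation, with symbols updated from RefSeq (GRCr8). Of the clusters, 23446 had 1 symbol, 505 several and 44891 none. A gene was represented by its cluster of 1 symbol with the highest mean, and 1229 genes had several. The median of 1153 negative control probe sets on each array, 5.01 to 5.43 log2 units, served as the floor. Where all arrays of a group were at or under it, the change is given as a bound.

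Genes were named by rule: the 15 largest rises and falls without overlap between groups, up to 2 rises and 2 falls of each list with its preset genes, genes in which replicate 1 lay with the controls, the largest differences between days, and Upp2 and Sat2. The text prints 122 of the 265, and also Igfbp2 and Ciart, which the counts over the 122 leave out. The members and gene lists were chosen with earlier results of these data known. The limma script was tested on simulated data. Alternatives changed the arrays fitted, the normalisation, pseudocount, filter and variance prior, and left out each liver, and the closing section gives their effect.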

Additional observations from a re-analysis of the deposited data

Results flagged for a closer look

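In groups of 4 livers, 1 liver stood apart from the other 3 in 20 of 244 groups tested, over the 122 genes named, where chance gives about 1 in 20 groups. Many of these genes were named because the groups lay far apart or because replicate 1 lay with the controls, so the count is a description and is not a test against that share. The measure is the gap of that liver to its nearest neighbour over the whole range of the group, held against Dixon's critical value. Rotenone replicate 1 was that liver in 7 groups, another rotenone liver in 2 and a control liver in 11. Rotenone replicate 1 was lowest for Soat2 (0.896), Ech1 (0.927), Ppargc1a (0.877), Hsd17b2 (0.888) and Pla2g12a (0.919) and highest for Clock (0.871) and Paqr9 (0.846). Rotenone replicate 3 was highest for Psat1 (0.929) and rotenone replicate 2 lowest for Mki67 (0.854). Among controls, replicate 4 was lowest for Sqle (0.888), Cyp27a1 (0.909), Igfbp1 (0.844), Slc16a10 (0.836) and Cd3e (0.889). Control replicate 3 was lowest for Srebf2 (0.974) and highest for Cpt1a (0.889), Cyp2c55 (0.969) and Upp2 (0.870). Control replicate 1 was highest for Nqo1 (0.842) and control replicate 2 lowest for Rrm2 (0.835).

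The day 14 change was above the day 3 change, or a smaller fall, in limma's test of the difference for Rrm2 (3.97 log2 units), Acsm2 (3.26), Tm7sf2 (2.42), Psat1 (2.16) and Dsg2 (1.07), and was below it for Apoa4 (-2.81) and Apoa1 (-1.79).

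The day 14 change differed from the day 1 change for 40 of the 122 genes named, 24 higher and 16 lower at day 14. Over all 22037 genes the share was 2.17%. Some genes were named because their difference between days was among the largest, so the count of 40 is a description and not a test. Among genes of lipids and bile acids the differences were 3.33 for Acat2, 2.92 for Tm7sf2, 1.63 for Soat2, 4.38 for Elovl6, 3.74 for Acsm2, 7.70 for Cyp7a1, 3.79 for Abcc3, -1.03 for Bdh1, -2.54 for Apoa1 and -4.41 for Apoa4. Clock and sex-dependent genes gave 4.03 for Nr1d1, -1.95 for Cry1, 1.19 for Cux2, -2.53 for Cyp2c7, 5.18 for Cyp2c24 and 4.40 for Cyp2c55. Enzymes of drug, energy and amino acid metabolism gave -1.62 for Cyp2j3, 2.62 for Aldh1a1, 2.47 for Ces2c, 2.20 for Gsta3, 2.24 for Idh2, 0.69 for Cox4i1, 1.16 for Tkt, 2.17 for Psat1, -1.84 for Aldh1l2, 2.02 for Mthfd1, 1.03 for Sat2 and 0.92 for Psmb6. Genes of blood, other cell types and the cell cycle gave -4.71 for Hba-a1, -2.73 for Alas2, -1.43 for Col3a1, -1.59 for Clec4f, -1.51 for Cd163, -1.47 for C6 and -2.95 for Ccnd1. The others were 3.44 for Serpina7, 4.74 for Hsd17b2, 3.35 for Sntb1, -4.84 for Slc22a8 and -2.99 for Paqr9.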

How the results depend on the processing

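The count of 3110 clusters at day 14 became 1182 with the 8 arrays alone, 4878 among clusters at or above the median level, 1028 with a 1.8-fold minimum and 1272 by an unadjusted Kruskal-Wallis test with that minimum. Leaving out single livers gave 1802 (without rotenone replicate 2) to 4029 (without control replicate 1). Quantile normalisation, array-median centring, a pseudocount of 16, another variance prior, array weights and clusters with 1 symbol gave 2485 to 3840. The median change of all genes stayed at 0.01 to 0.04 under these scalings. Without rotenone replicate 1 the count of 3490 became 1594 with the 7 arrays alone and 1303 with the 1.8-fold minimum.

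The 8 clusters that differed between day 14 and day 3 in limma became 0 with the 16 arrays alone (4864 clusters at an unadjusted p under 0.05, against 4850 with all arrays), 44 at or above the median level, 31 with array weights and 99 among clusters with 1 symbol. Leaving out single livers gave 4 (without control day 3 replicate 1, among others) to 236 (without rotenone day 14 replicate 1). The 640 that differed between day 14 and day 1 became 265 with the 16 arrays alone, 405 with centring, 1240 at or above the median level, 970 with the pseudocount and 1244 with 1 symbol. Leaving out single livers gave 333 (without rotenone day 14 replicate 4) to 1012 (without rotenone day 14 replicate 1). Why the counts moved was not tested beyond the smaller number of arrays or clusters in each setting.

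Of the 204 named genes called at day 14, 106 kept their call under every setting run, 149 when any 1 liver was left out, and none reversed. The 8 arrays alone ended 88 of these calls, centring 16 and quantile normalisation 7. Leaving out rotenone replicate 2 ended 43, against 7 for rotenone replicate 1. Same-numbered rotenone and control livers did not deviate together (correlations -0.11 to 0.05), so the numbers do not pair the samples. The replicate block gave 2868 clusters at day 14, 3156 without rotenone replicate 1, 7 against day 3 and 553 against day 1, and ended 11 named calls. Of 162 further clusters of called genes, 144 moved the same way, but only 86 were given the same call, and 3 were called the opposite way. With 4 livers a group and signals near the negative controls for many genes, small changes are not detectable.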
